A study of Homo sapiens with 6 samples.

Results

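The products of 9 genes, MBD1, MBD2, MBD3, MBD4, MBD5, MBD6, ZBTB4, ZBTB33 and ZBTB38, are grouped as methyl-CpG binding proteins, and their transcripts were followed through a knockdown of the TET enzymes. The genes were chosen by gene symbol, as all probe sets that the array's annotation assigns to 1 of these symbols alone, which gave 31 of the 54613 probe sets that are not controls. Of the 31, 24 lay in the brighter 50% of probe sets (27306) that were tested, and each of the 9 genes had at least 1 of them. The cells were Flp-In T-REx 293, which derive from the human embryonic kidney line HEK293, and their total RNA was read on 6 Affymetrix arrays. In the 3 TET siRNA samples the cells had received siRNAs to TET1, TET2 and TET3 at the same time, and in the 3 non-targeting siRNA samples a pool of siRNAs without a target, in both cases 96 h before RNA was taken. Every sample carried a stable GFP transgene that is inducible and was not induced. Clones 1, 2 and 3 each gave 1 array to either group, so each comparison has 3 clones of 1 cell line behind it.

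Cytosines followed by guanine are methylated in most of the mammalian genome, and proteins that recognise the methylated dinucleotide bring repressor complexes to it. One family does so through the methyl-CpG binding domain (MBD), and another through zinc fingers joined to a BTB domain, as in ZBTB33 (also called Kaiso), ZBTB4 and ZBTB38. The TET enzymes oxidise methylated cytosine, so they act on the same mark that these proteins read. The arrays measured transcripts only, and neither DNA methylation nor protein was measured in them.

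The knockdown was present in every clone. The brightest TET1 probe set had signals of 448, 621 and 685 in clones 1, 2 and 3 with TET siRNA, against 3073, 3123 and 3470 with non-targeting siRNA. The brightest probe set of TET2 was at 46.8% and that of TET3 at 42.9% of the non-targeting level, while 1 dim probe set of TET2 was at 117.2%. The markers of HEK293 cells all lay above the brightness filter, with vimentin (VIM) at 30595 to 38565, neurofilament light chain (NEFL) at 17071 to 24539, KRT18 at 8338 to 9909, KRT8 at 1612 to 1829, INA at 1531 to 2058, NEFM at 193 to 406 and PAX2 at 204 to 340.1. Of markers of other cell types, PTPRC (blood) and ALB (liver) were at 9.60 to 71.5, while PECAM1 (endothelium) at 147 to 209.9 and COL1A1 (fibroblasts) at 864 to 1289 lay above the filter. Signals are MAS5 values scaled to a trimmed mean of 1000 on each array, and signals of different probe sets cannot be ordered against each other.

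None of the 24 tested member probe sets passed in limma without a clone term (adjusted p under 0.05, Benjamini-Hochberg over all 27306), where 0.0146% of all tested probe sets passed. With the clone as a replicate block 1 of 24 passed, a probe set of ZBTB4 that was higher with TET siRNA. In that fit 1.03% of all tested probe sets passed in either direction and 0.385% passed as higher. At an unadjusted p under 0.05 without the block, 2 of 24 member probe sets (8.33%) stood beside 6.61% of all tested probe sets. The 2 were the brightest probe sets of ZBTB4 and ZBTB38. With the block, 4 of the 24 and 3925 of all 27306 had an unadjusted p under 0.05 in limma. The 4 also took in ZBTB4 227047_x_at and MBD6 227833_s_at. At the brightest probe sets of MBD1 to MBD6 and ZBTB33 the limma adjusted p with the block ran from 0.339 (MBD6) to 0.976 (MBD3). At 3 probe sets every TET siRNA sample was above every non-targeting sample (12.5%, against 7.21% of all tested), those of ZBTB4, ZBTB38 and MBD4, and none had the reverse order. Separation in either direction was seen in 12.7% of all tested probe sets. The log2 difference was above 0 in all 3 clones at 8 of 24 member probe sets (33.3%), against 20.5% of all tested. It was below 0 in all 3 clones at 3 of 24 (12.5%). The 3 clones shared a sign, in either direction, at 45.8% of the 24 and at 36.2% of all tested. Several of the 24 belong to the same gene. The median log2 difference was 0.09 over the 24, with 18 of them positive, against a median of 0.02 over all tested probe sets, of which 54.4% were positive. In RNA from whole cultures, a change in the RNA of each cell and a change in the make-up of the culture cannot be told apart.

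**Figure D1:**
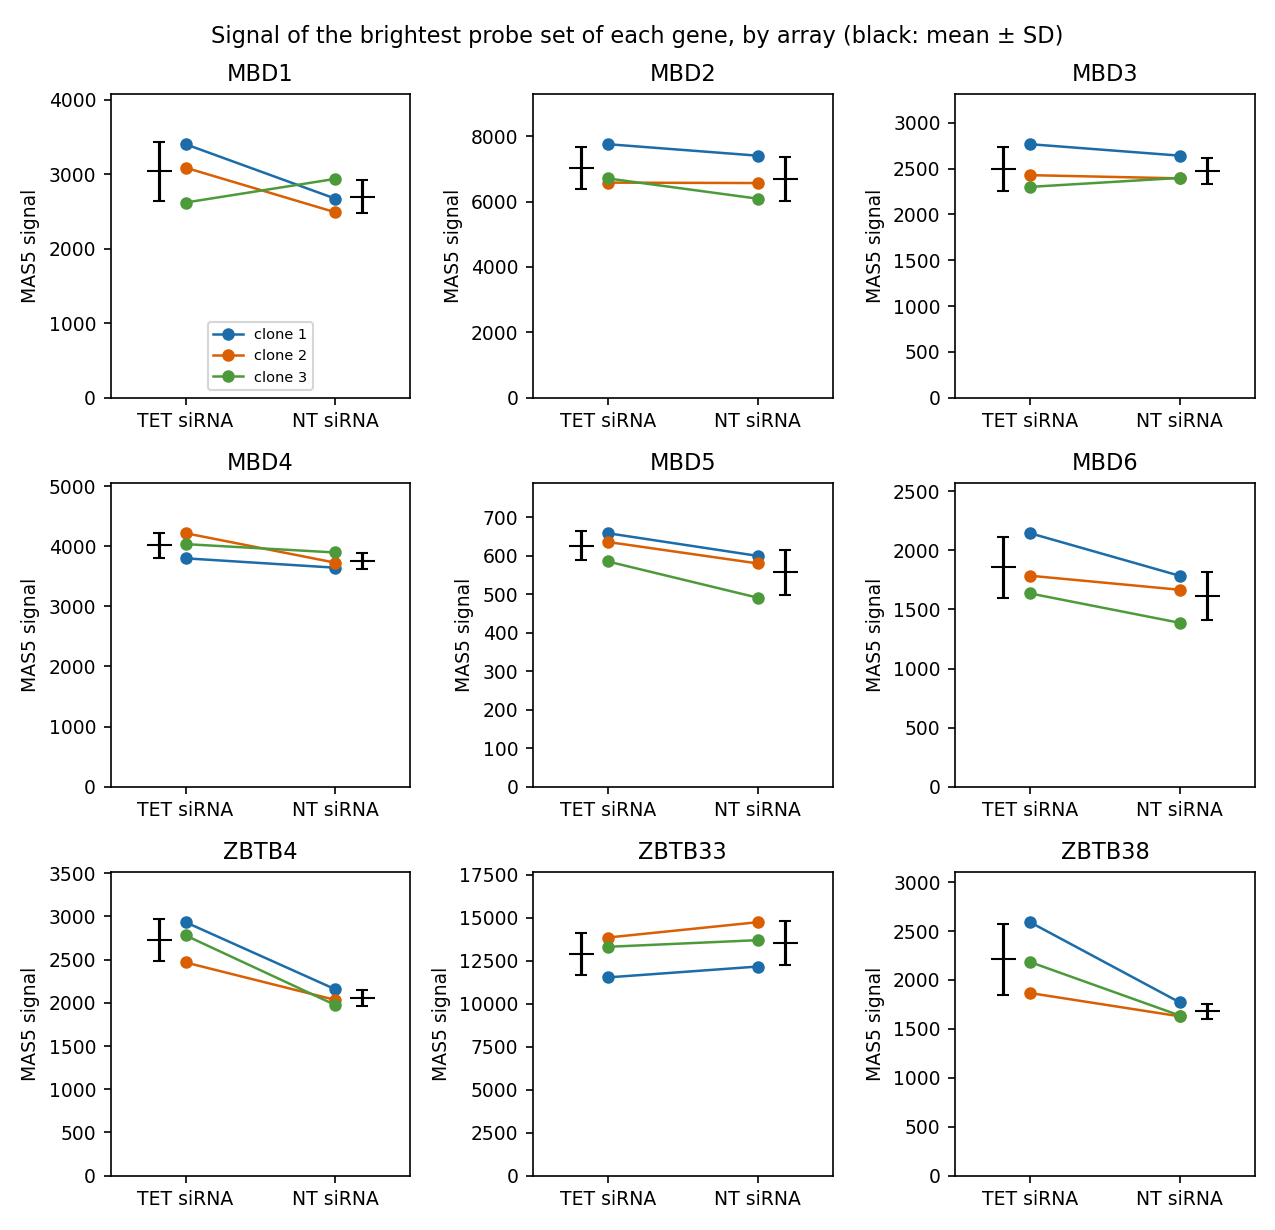
MAS5 signal (linear axis from 0) of the brightest probe set of each gene in the 6 arrays, with TET siRNA on the left and non-targeting (NT) siRNA on the right of each panel; lines join the arrays of a clone and black bars give mean ± SD (n = 3). The groups are separate for ZBTB4 and ZBTB38 and overlap for the other 7 genes.

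ZBTB4, a BTB zinc finger protein that binds single methylated CpG sites and represses transcription, had the smallest p among the members. Its brightest probe set (225629_s_at, Entrez gene 57659) had signals of 2934, 2468 and 2781 in clones 1, 2 and 3 with TET siRNA, against 2157, 2034 and 1975 with non-targeting siRNA. The lowest TET siRNA sample lay above the highest non-targeting sample, and clone 2 had the smallest gap. The means were 2728 ± 238 with TET siRNA and 2055 ± 92.8 with non-targeting siRNA (SD, n = 3 each), a 1.32-fold higher level (95% interval 1.12 to 1.56). On the log2 scale the difference was 0.41 (SE 0.10), with 0.44, 0.28 and 0.49 in clones 1, 2 and 3. In limma the adjusted p was 0.454 with no clone term, and the replicate block brought it to 0.0475.

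That call lies close to the threshold and was lost in several fits with the replicate block. The limma adjusted p with the block was 0.188 with no filter on dim probe sets, 0.0644 after quantile normalization, 0.325 without the trended and robust moderation, 0.192 without clone 1 and 0.383 without clone 3. It was 0.00976 without clone 2. Both ZBTB4 probe sets are of types (_s_at and _x_at) that can match more than 1 transcript. With such probe sets left out ZBTB4 has none, and no member passed (1 at an unadjusted p under 0.05, fitted without the clone). The second ZBTB4 probe set (227047_x_at) had signals of 584, 308 and 584 with TET siRNA, against 308, 349 and 364 with non-targeting siRNA. Clones 1 and 3 were higher with TET siRNA and clone 2 was not, so the groups overlap. Its log2 difference was 0.48 (SE 0.26, limma adjusted p 0.796, and 0.338 with the block). It was 0.78 without the TET siRNA array of clone 2, 0.25 without clone 1 and 0.80 without clone 2, where the blocked fit gave an adjusted p of 0.0264.

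ZBTB38, which also reads single methylated CpG sites, gave nearly the same difference at its brightest probe set (225512_at, Entrez gene 253461). The signals were 2590, 1866 and 2183 in clones 1, 2 and 3 with TET siRNA, against 1770, 1628 and 1636 with non-targeting siRNA. The groups did not overlap, and clone 2 again had the smallest gap. The means were 2213 ± 363 with TET siRNA and 1678 ± 79.5 with non-targeting siRNA (SD, n = 3 each), 1.31-fold (95% interval 1.06 to 1.61). The log2 difference of 0.39 (SE 0.13) did not pass (limma adjusted p 0.672, and 0.0868 with the replicate block). Of the blocked fits run, it passed in that without clone 2 alone (adjusted p 0.0130).

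The dimmer ZBTB38 probe sets showed the difference less or not at all. At 219221_at the signals were 719, 491 and 637 with TET siRNA, against 581, 455 and 470.4 with non-targeting siRNA, a log2 difference of 0.28 (SE 0.19) with 3 of 3 clones higher and overlapping groups. At 236557_at and 1558733_at the log2 differences were 0.08 and -0.10, with intervals of -0.59 to 0.75 and -0.73 to 0.52. The fifth, 230754_at, lay below the brightness filter, with signals of 10.5 to 123 with TET siRNA and 11.4 to 59.4 with non-targeting siRNA.

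The promoter windows of ZBTB4 and ZBTB38 are shown because these were the members whose groups separated most clearly at the brightest probe set, and because CpG sites are what the family reads. Each window is the 250 bases before a transcription start, read from RefSeq promoter sequences of GRCh38.p14 and written 5′ to 3′ on the strand of the gene. In the first pair capitals mark CG dinucleotides; ZBTB4 has 1 annotated start here (chr17:7484250-7484499, minus strand) and ZBTB38 has 10, of which the window richest in CG is given (chr3:141402099-141402348, plus strand).
ZBTB4: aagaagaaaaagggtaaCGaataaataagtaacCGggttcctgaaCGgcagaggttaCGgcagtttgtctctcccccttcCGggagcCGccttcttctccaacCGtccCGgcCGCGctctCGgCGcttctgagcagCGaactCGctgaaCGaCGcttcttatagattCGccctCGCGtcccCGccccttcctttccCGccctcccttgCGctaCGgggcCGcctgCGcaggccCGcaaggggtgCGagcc
ZBTB38: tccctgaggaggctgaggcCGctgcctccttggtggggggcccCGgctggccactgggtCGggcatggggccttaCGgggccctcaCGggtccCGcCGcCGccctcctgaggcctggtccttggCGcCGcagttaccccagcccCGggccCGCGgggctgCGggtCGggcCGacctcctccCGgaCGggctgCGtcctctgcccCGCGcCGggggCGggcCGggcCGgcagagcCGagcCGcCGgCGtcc
The ZBTB4 window holds 27 CG and the printed ZBTB38 window 29, against a median of 11 over 35116 windows. The 10 ZBTB38 windows run from 0 to 29 CG, and 7 of them lie under that median. All 9 genes have a window in the table, and the one window of MBD3 holds 32 CG, the most of any member.

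ZBTB33 is known to bind methylated CGCG and also an unmethylated site, TCCTGCNA. On both strands, CGCG was found in 8 of the 19 member windows and in 46.4% of all windows, and TCCTGCNA in 1 of 19 and in 3.74% of all. ZBTB38 accounts for 10 of the 19, and of its windows only the CG-rich one printed above holds CGCG. Each other gene except MBD5 had CGCG in its window. The single TCCTGCNA match was in a further ZBTB38 window (chr3:141386175-141386424, plus strand), where it begins at base 214 on the opposite strand and is set in capitals.
ZBTB38 with the TCCTGCNA match: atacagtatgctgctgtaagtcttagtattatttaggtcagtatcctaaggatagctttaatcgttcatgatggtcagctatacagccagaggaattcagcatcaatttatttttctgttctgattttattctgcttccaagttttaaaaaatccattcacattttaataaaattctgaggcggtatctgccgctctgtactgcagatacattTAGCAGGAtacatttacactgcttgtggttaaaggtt
Such a match describes the letters of the window, and binding was not measured.

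ZBTB33 itself had no detectable difference. Its bright probe set (226255_at, Entrez gene 10009) had signals of 11531, 13850 and 13310 in clones 1, 2 and 3 with TET siRNA, against 12162, 14742 and 13697 with non-targeting siRNA. Each clone was slightly lower with TET siRNA, and clone 1 was the lowest clone in both groups. The log2 difference was -0.07 (95% interval -0.30 to 0.16, limma adjusted p 0.947), and the clones spanned 0.27. The dim probe set 214631_at gave -0.08 (interval -0.73 to 0.56), with clone 2 higher and clones 1 and 3 lower.

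MBD1 binds methylated CpG through its MBD and recruits the histone methyltransferase SETDB1. Its brightest probe set (203353_s_at, Entrez gene 4152) had signals of 3401, 3086 and 2618 with TET siRNA, against 2670, 2487 and 2936 with non-targeting siRNA. Clones 1 and 2 were higher with TET siRNA and clone 3 was lower. The log2 difference was 0.17 (SE 0.12, interval -0.11 to 0.44, limma adjusted p 0.862). The other MBD1 probe sets were dimmer and went different ways. At 241813_at the signals were 415, 265 and 279 with TET siRNA, against 485, 383 and 349 with non-targeting siRNA, lower in 3 of 3 clones with overlapping groups (log2 -0.36, SE 0.23, limma adjusted p 0.830). At 226862_at clone 3 had 246 with TET siRNA against 444 with non-targeting siRNA, while clones 1 and 2 were higher with TET siRNA, and the mean log2 difference was 0.01 (interval -0.70 to 0.71). The remaining 208595_s_at and 1555611_s_at gave 0.09 and 0.03.

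MBD2, a methyl-CpG reader and the MBD subunit of one form of the NuRD deacetylase complex, differed little. Its bright probe set (202484_s_at, Entrez gene 8932) had signals of 7757, 6581 and 6709 with TET siRNA, against 7406, 6568 and 6090 with non-targeting siRNA. Clone 1 was the highest clone in both groups. The log2 difference was 0.07 (interval -0.16 to 0.30, or 0.893 to 1.23-fold, limma adjusted p 0.949). The other MBD2 probe sets, 202485_s_at, 214396_s_at and 214397_at, lay below the brightness filter. Their log2 differences in the fit on all probe sets were -0.37, 0.71 and -0.06 with SEs of 0.42, 0.76 and 0.50. In that fit 0.00549% of all 54613 probe sets passed, and 0.128% did with the replicate block. None of the 7 probe sets below the filter, which belong to 4 of the genes, passed in either.

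MBD4 couples an MBD to a glycosylase that removes thymine and uracil opposite guanine. Its brightest probe set (209579_s_at, Entrez gene 8930) had signals of 3799, 4217 and 4035 with TET siRNA, against 3643, 3726 and 3896 with non-targeting siRNA, a log2 difference of 0.10 (interval -0.10 to 0.29). The second, 214047_s_at, had 3149, 2771 and 2771 with TET siRNA, against 2620, 2582 and 2699 with non-targeting siRNA. Its groups did not overlap, but the gap between them was small and the log2 difference of 0.14 (SE 0.09) did not pass (limma adjusted p 0.855). The third, 209580_s_at, went the other way in 3 of 3 clones with -0.06 (interval -0.27 to 0.16). The dim 214048_at gave 0.20, most of it from clone 3, with 313 for TET siRNA and 181 for non-targeting siRNA.

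MBD3, MBD5 and MBD6 carry the domain without, in mammals, selective binding to methylated CpG. MBD3 is the MBD subunit of the other form of NuRD. Its brightest probe set (41160_at, Entrez gene 53615) had signals of 2767, 2429 and 2301 with TET siRNA, against 2642, 2394 and 2399 with non-targeting siRNA. The log2 difference was 0.01 (interval -0.23 to 0.25, limma adjusted p 0.996). The MBD3 probe set 222183_x_at, which can cross-hybridise, separated the clones and not the siRNAs. It had 1345, 701 and 790.3 with TET siRNA, against 1146, 640.1 and 817 with non-targeting siRNA. Clone 1 was highest in both groups there, by a clone range of 0.89 on the log2 scale beside a siRNA difference of 0.10. The third MBD3 probe set, 202463_s_at, gave -0.12 (interval -0.49 to 0.24).

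MBD5 and MBD6 associate with the PR-DUB deubiquitinase complex. MBD5 (220195_at, Entrez gene 55777) had signals of 659, 636 and 585 with TET siRNA, against 599.9, 580.3 and 491 with non-targeting siRNA. Each clone was higher with TET siRNA, and the groups overlapped. The log2 difference was 0.17 (SE 0.14, limma adjusted p 0.886, and 0.594 with the block). MBD6 (227833_s_at, Entrez gene 114785) had 2146, 1786 and 1636 with TET siRNA, against 1785, 1667 and 1387 with non-targeting siRNA, likewise higher in each clone with overlapping groups (log2 0.20, SE 0.14, limma adjusted p 0.856). With the block its SE was 0.09 and its limma adjusted p 0.339 (unadjusted 0.0467). In both genes clone 1 was the highest and clone 3 the lowest in either group. A second MBD6 probe set (226076_s_at) gave 0.08. Below the filter, MBD5 227839_at and 244662_at gave 0.60 and -0.65, with single clones at 1.97 (clone 1) and -2.35 (clone 3), and MBD6 227832_at gave 0.47 (SE 0.71).

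**Figure D2:**
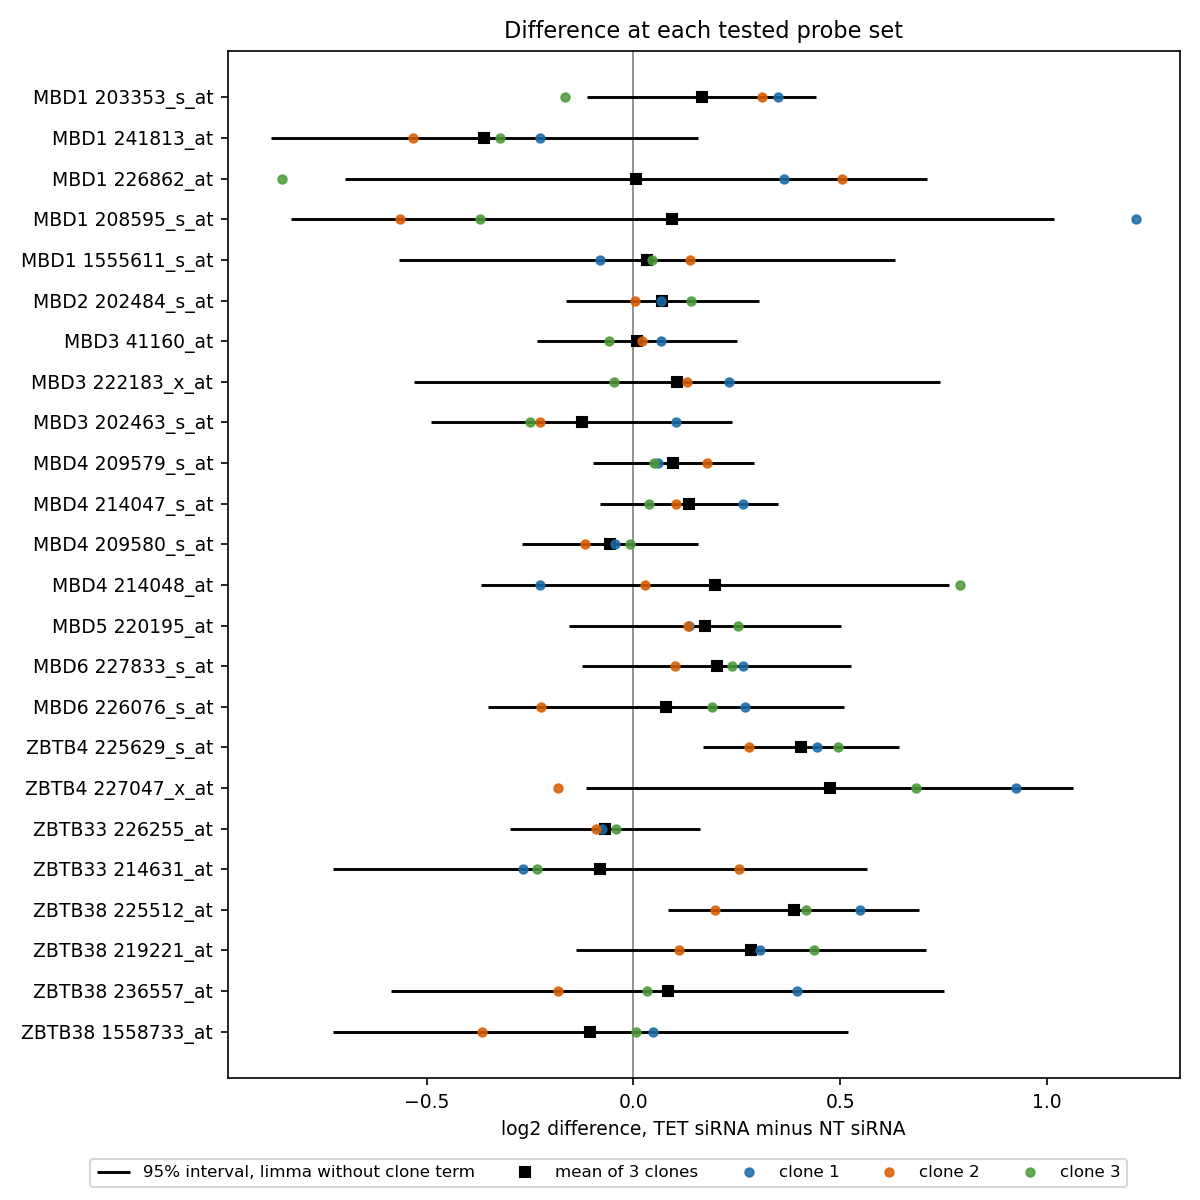
Log2 difference (TET siRNA minus non-targeting siRNA) at the 24 tested probe sets, with the mean as a square, its 95% interval from limma without a clone term as a line, and each clone as a coloured point. The intervals of ZBTB4 225629_s_at and ZBTB38 225512_at lie above 0, and the other 22 include 0. The intervals are not adjusted for the number of probe sets, and neither probe set passed after adjustment in that fit.

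The range among the clones was set beside the siRNA difference, a comparison that does not test whether the clones differ. At 19 of 24 member probe sets (79.2%) the range of the 3 clone means exceeded the size of the siRNA difference, as it did at 77.6% of all tested probe sets. By brightest probe set it did so in 5 of the 9 genes, the others being MBD1, MBD4, ZBTB4 and ZBTB38, and in 77.4% of all tested genes. The median clone range was 0.31 over the members and 0.28 over all tested probe sets. Clone 1 had the highest clone mean at 15 of the 24 (62.5%), some of them probe sets of the same gene. The share over all tested probe sets was not computed, so this count has no background beside it. For ZBTB4 225629_s_at the clone range was 0.17, below its difference of 0.41, and for ZBTB38 225512_at it was 0.30 beside 0.39. Whether clone 1 differs from clones 2 and 3 at these genes was not tested.

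**Figure D3:**
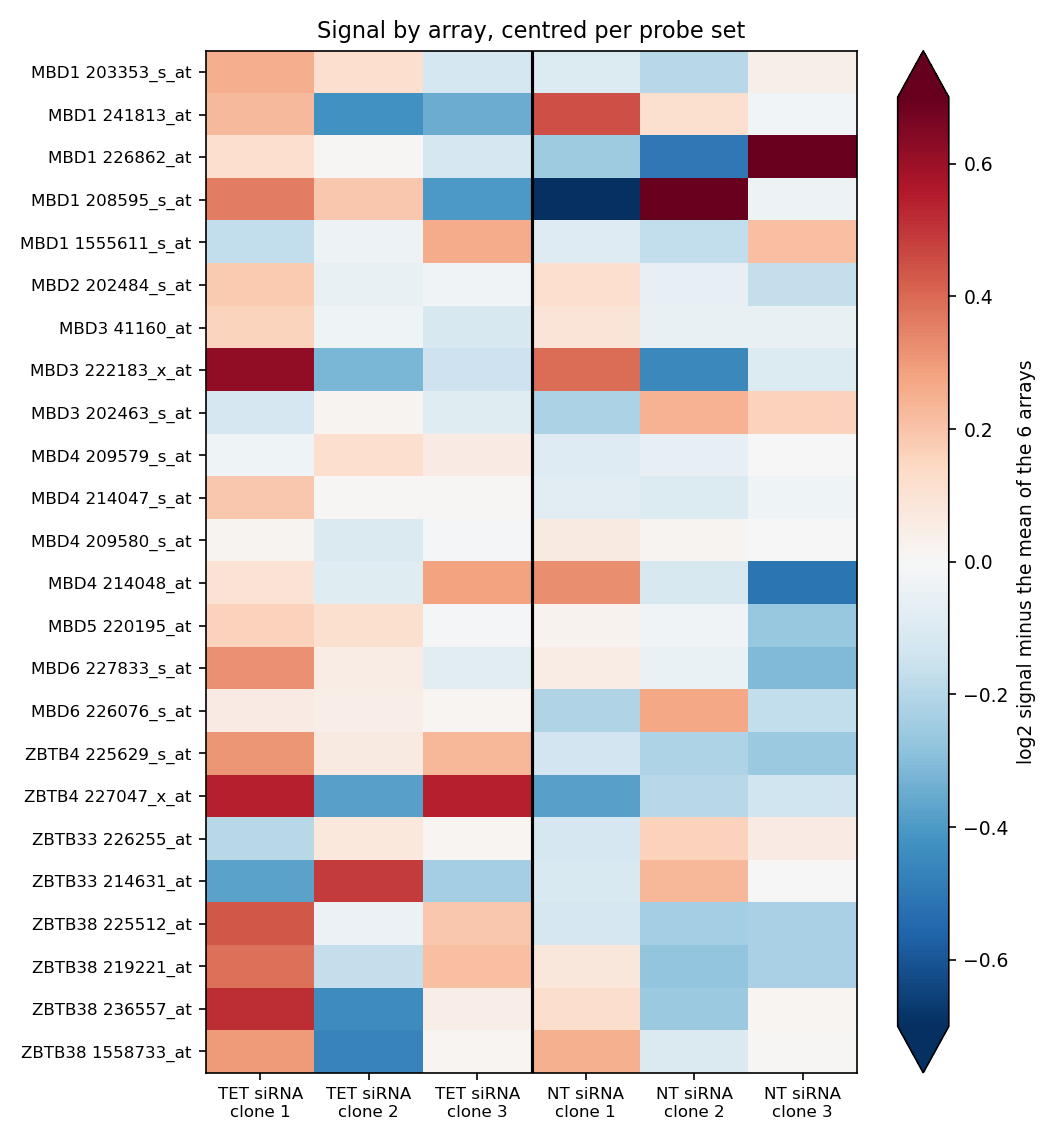
Log2 signal of the 24 tested probe sets in each array, minus the mean of the 6 arrays (red above, blue below; the colour scale ends at 0.7 either way). The ZBTB4 225629_s_at row is red in the 3 TET siRNA arrays and blue in the 3 non-targeting arrays, while the MBD3 222183_x_at row is red in both arrays of clone 1.

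Over the 6 arrays, the Pearson correlations between log2 signals of the brightest probe sets ran from -0.86 to 0.96 over the 36 pairs of member genes. The highest were those of ZBTB4 with ZBTB38 (0.96) and MBD5 with MBD6 (0.94), and the lowest those of ZBTB33 with MBD2 (-0.86) and with MBD3 (-0.85). These are descriptions of 6 arrays from 3 clones that share clone and siRNA. Of 12317 other tested genes, the 3 most like ZBTB4 over the 6 arrays were ZBTB37 (r = 0.997), CEP135 (0.995) and NAPEPLD (0.993), and 1.58% of the genes reached 0.9. The 3 most like ZBTB38 were SNX18 (0.997), SSBP3-AS1 (0.992) and TPX2 (0.990), with 1.62% of the genes at 0.9 or more.

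Genes known to work with the members, or alike in domain or name, were read by their brightest tested probe set, in 8 lists. Together they held 77 tested genes, of which 35 were other BTB zinc finger genes. None of the 77 passed without the clone, and 2 (2.6%) passed with the replicate block, 1 higher and 1 lower. Both were among the 35, and no gene of the other lists passed in either fit. Over all 12318 tested genes, read in the same way, 0.0162% and 1.32% passed. At an unadjusted p under 0.05 without the block stood 11 of the 77 (14.3%), against 6.96% of all tested genes. Over the 77 the median log2 difference was 0.01 with 40 positive, and over all tested genes it was 0.0070 with 51.9% positive. In the same terms the 9 members had a median of 0.17 with 8 positive. Groups that did not overlap, as in some list genes below, were seen in 12.7% of all tested probe sets. The share among the 77 was not computed.

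Of the NuRD subunits, 12 were tested and 8 were positive (median 0.06), and none passed in either fit. CHD3, a chromatin remodelling ATPase, had signals of 548, 617 and 577 with TET siRNA, against 294, 499 and 448 with non-targeting siRNA. The groups did not overlap, and clone 1 had the largest gap (log2 0.52, SE 0.21, limma adjusted p 0.732, and 0.161 with the block). CDK2AP1 differed by 0.20 (interval -0.01 to 0.40). The 5 tested partners of MBD1 had a median of 0.06, with SETDB1 at 0.08 and the heterochromatin protein CBX5 at 0.24 (adjusted p 0.951 and 0.754 in limma).

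Partners of MBD5 and MBD6 in PR-DUB went both ways, 3 positive and 3 negative of 6 tested. The scaffold genes ASXL1 and ASXL3 stood at the ends. ASXL1 had 1837, 1890 and 1918 with TET siRNA, against 2118, 2208 and 2350 with non-targeting siRNA (log2 -0.24). ASXL3 had 603, 655 and 638 with TET siRNA, against 491, 525 and 495 with non-targeting siRNA (log2 0.33). Neither pair of groups overlapped and neither passed (limma adjusted p 0.728 and 0.735, and 0.216 and 0.280 with the block). Of the partners of MBD4, 2 were tested, the adaptor FADD at -0.03 and the thymine glycosylase TDG at 0.06.

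Among 9 tested corepressors of the zinc finger members the median was -0.02. HDAC3, the deacetylase of the NCoR complex that Kaiso recruits, had 2243, 2333 and 1976 with TET siRNA, against 2993, 2723 and 3006 with non-targeting siRNA. All 3 TET siRNA samples were below all 3 non-targeting samples (log2 -0.41, SE 0.10). It did not pass (limma adjusted p 0.454, and 0.0583 with the replicate block). TBL1X, another subunit of that complex, differed by -0.27 (interval -0.53 to -0.01, adjusted p 0.742). TBL1XR1 and GPS2 of the same complex were at -0.08 and -0.04, with SEs of 0.10 and 0.14. Of 5 regulators and targets of ZBTB4 and ZBTB38, with a median of -0.04, HIPK2, a kinase that directs ZBTB4 to degradation, was at 0.14 and MCM10, a replication factor whose gene ZBTB38 represses, at -0.23. The MCM10 value came from clone 1, with 3841 for TET siRNA and 6282 for non-targeting siRNA, while clones 2 and 3 gave -0.03 and 0.06.

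Other proteins with an MBD-like domain had 3 tested genes, all positive with a median of 0.29 and none past the threshold. BAZ2B, a bromodomain protein, had 1363, 979 and 1123 with TET siRNA, against 911, 911 and 776 with non-targeting siRNA (log2 0.41, SE 0.15, limma adjusted p 0.699). SETDB2, a histone methyltransferase, differed by 0.29 (SE 0.13). Of 35 other BTB zinc finger genes, 15 were positive and 20 negative (median -0.0025), and with the replicate block 1 rose and 1 fell. ZBTB18, a neurodevelopmental repressor, had 11605, 9807 and 10756 with TET siRNA, against 8987, 8041 and 7936 with non-targeting siRNA (log2 0.36, SE 0.09; limma adjusted p 0.444 without and 0.0276 with the block). ZBTB44 had 4522, 4726 and 4418 with TET siRNA, against 5482, 6389 and 6230 with non-targeting siRNA (log2 -0.40, SE 0.09; limma adjusted p 0.330 without and 0.0256 with the block). Both calls were lost in the blocked fits with no filter on dim probe sets, with plain moderation, without clone 1 and without clone 3, where no list gene passed.

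**Figure D4:**
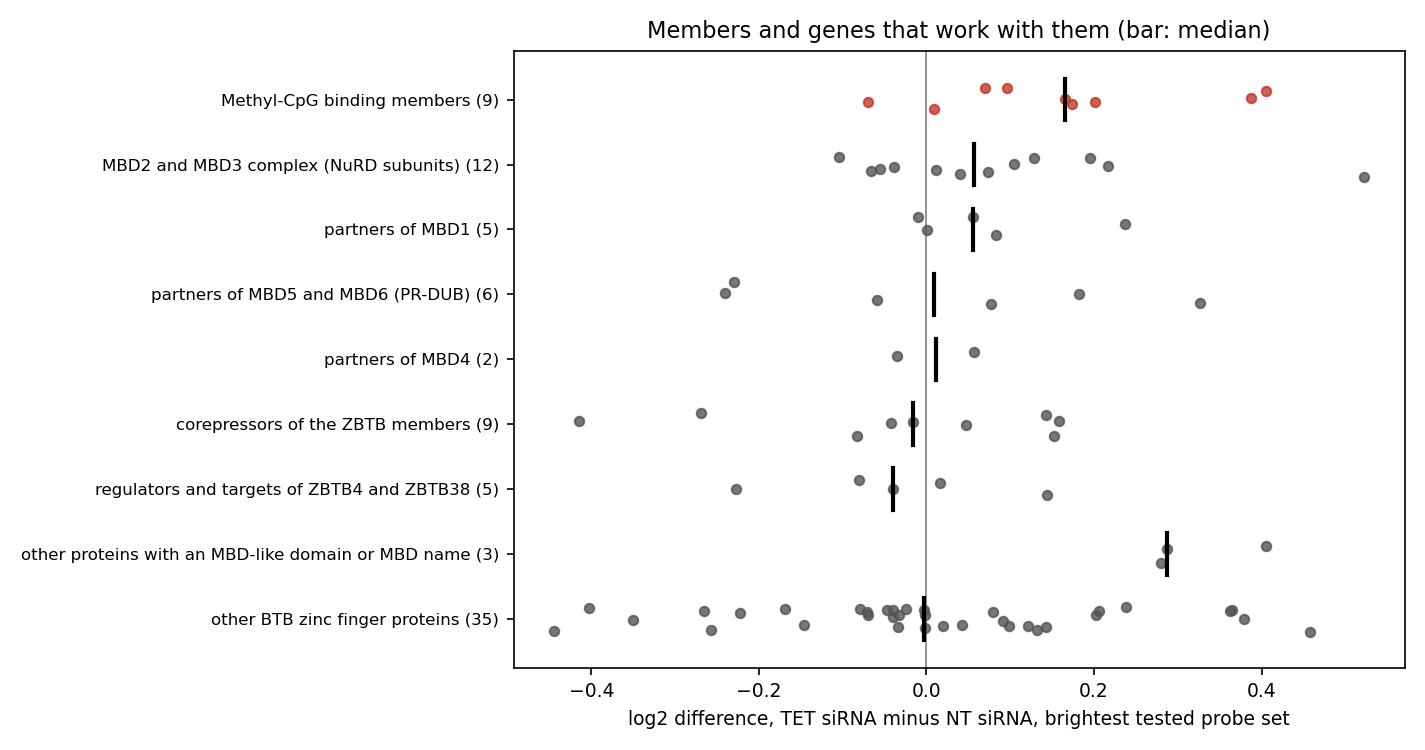
Log2 difference (TET siRNA minus non-targeting siRNA) of the 9 members (red) and of the tested genes in 8 lists of genes that work with them or share their domains (grey), each by its brightest tested probe set; bars mark medians and numbers in brackets count genes. The members' median is 0.17, and the medians of the lists run from -0.04 to 0.29.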

How the data were processed

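The deposited values are intensities on a linear scale, 1 column per array, summarised per probe set with MAS5 per the submitters' processing notes; no version is stated there. MAS5 works array by array and leaves dim probe sets noisy. The values had been scaled already, with a trimmed mean (2% at each end) of 1000 on every array. Detection calls were not used here. The number of arrays limits the precision.

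After 62 control probe sets were set aside, log2 signals of the upper 50% by mean over the 6 arrays (a geometric mean of at least 117) were fitted in limma 3.58.1 (R 4.3.3) with trended, robust moderation and no clone term, two-sided, with Benjamini-Hochberg adjustment over all 27306. Probe sets below the filter were read from the fit on all 54613. Intervals are 95% and are not adjusted for the number of probe sets. Unless the block is named, intervals and SEs come from the fit with no clone term, which ignores the pairing. The median residual SD was 0.134 with the block and 0.200 in that fit. The fit with the clone as replicate block is given beside it, because the labels name the same clones in both groups; same-clone arrays deviated together, with correlations across probe sets of 0.493, 0.234 and 0.236 for clones 1, 2 and 3, against -0.372 to 0.219 between different clones (the highest is TET siRNA clone 2 with non-targeting clone 3). The steps were tested on simulated data. All 31 member probe sets were found in the RefSeq gene table by Entrez ID. Plots used matplotlib 3.10.9.

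All 31 member probe sets are named. In each list, up to 4 genes past the threshold in either fit are named, filled to the 2 of smallest p. TBL1XR1 and GPS2 are given in addition. Members, lists and alternatives were chosen with earlier results of these data known. The alternatives were another filter, a pseudocount of 36.1, quantile normalization, plain moderation, left-out arrays or clones and the mean of a gene's probe sets.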

Additional observations from a re-analysis of the deposited data

How the results depend on the processing

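Without the clone term, no member probe set passed in limma under any alternative run; 0 to 4 of them had an unadjusted p under 0.05. With the replicate block the count was 1, and it was 1 with the upper 30% of probe sets or the pseudocount and 0 with the other 3 blocked settings (no filter, quantile normalization, plain moderation); these 5 blocked settings were added after the data were seen. Leaving out arrays or clones gave 0 to 3, the 3 with the block and without clone 2. For genes of the lists the count was 0 without the clone term (1 when clone 1 was left out), 2 with the block (4 with the upper 30%, 2 with the pseudocount or quantile normalization), and 0 to 5 with arrays or clones left out. Over all tested probe sets, 4 became 14 with the upper 30%, 1 with plain moderation and 282 with the block (70 with no filter, 368 with the upper 30%, 305 with the pseudocount, 231 after quantile normalization, 0 with plain moderation and 3355 at an unadjusted p under 0.05), and 0 to 684 with arrays or clones left out. TET1 passed without the block, and all 3 TET genes with it. The block changed the call of no other member than ZBTB4. The causes were not tested.

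Signs turned only at differences that passed in no fit. MBD1 226862_at was -0.0037 with the pseudocount and -0.0404 after quantile normalization, and MBD3 41160_at -0.0025 after quantile normalization, each with and without the block. As the mean of all tested probe sets, MBD1 was -0.0123 and MBD3 -0.0036. With arrays or clones left out, the log2 differences ran from -0.24 to 0.43 (MBD1 226862_at), -0.47 to 0.49 (208595_s_at) and -0.0871 to 0.1483 (1555611_s_at), -0.0046 to 0.15 (MBD2 202484_s_at), -0.0665 to 0.0666 (MBD3 41160_at) and -0.18 to 0.33 (222183_x_at), -0.10 to 0.41 (MBD4 214048_at), -0.0167 to 0.2332 (MBD6 226076_s_at), -0.14 to 0.0092 (ZBTB33 226255_at) and -0.3465 to 0.0858 (214631_at), and -0.16 to 0.32 (ZBTB38 236557_at) and -0.28 to 0.10 (1558733_at). ZBTB4 225629_s_at stayed between 0.35 and 0.48 and ZBTB38 225512_at between 0.27 and 0.50. Dim probe sets limit what can be seen: SEs were 0.42 to 1.02 among the 7 below the filter.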
